A study of Saccharomyces cerevisiae with 15 samples.

Results

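The genes described here are the 9 members of the yeast quality control ubiquitination system around the Roq1 protein and the ligase Ubr1: ROQ1, UBR1, UBR2, MUB1, SAN1, RAD6, UBC4, UBC5 and UBI4. They were chosen by name, with earlier results of these data known. Every probe set whose single gene symbol was one of these was taken. Each gene had 1 probe set, so that 9 of 5656 measured genes are described. RNA levels were measured on 15 Affymetrix arrays of the budding yeast Saccharomyces cerevisiae, in 5 groups of 3. The cells were a model of Huntington's disease, in which a fragment of human huntingtin (Htt) is made in yeast.

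All groups were MATa haploids of the BY4741 background grown at 30 °C in 12 mL of galactose medium (2%) without uracil, from an optical density of 0.2 to about 1. The control, Htt25Q, expressed the fragment with 25 glutamines in an otherwise wild-type strain. Htt103Q expressed the fragment with 103 glutamines in the same background, from a promoter that galactose induces. In the remaining groups, called here the bna4, mbf1 and ume1 deletions, the same Htt103Q fragment was made by cells from which BNA4, MBF1 or UME1 had been deleted. Each deletion strain therefore also carried the expanded repeat, and none of the groups lacked the huntingtin fragment. The study describes the deletions as suppressors, and the labels do not state whether replicates were separate cultures or how many clones were used, so a p-value reflects only how far these samples scatter, which may be technical scatter.

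Ubiquitin is attached to proteins by a chain of an activating enzyme (E1), a conjugating enzyme (E2) and a ligase (E3) that picks the substrate. Ubr1 is the ligase of the N-degron pathway, which reads the first residue of a protein, and it also marks misfolded cytosolic proteins. Under stress the small protein Roq1 is made, is cut by the protease Nma111 (also called Ynm3), and binds Ubr1 at the site that reads such residues, which turns the ligase towards misfolded proteins. Ubr2 is a relative of Ubr1 that works with Mub1 to degrade Rpn4, the transcription factor of proteasome genes, and San1 is a nuclear ligase for misfolded proteins. Rad6 is the E2 of Ubr1 and Ubr2, Ubc4 and Ubc5 are closely related E2 enzymes for abnormal and short-lived proteins, and UBI4 encodes a chain of ubiquitin units that is used under stress.

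The deposited values formed 2 processing sets, a first with 9 arrays (Htt25Q, Htt103Q, ume1 deletion) and a second with 6 (bna4 and mbf1 deletions), so strain and processing cannot be told apart across the sets and tests were made only inside each. Values are log2 signals, quantile normalized across the 15 arrays, so every change is measured against the bulk of probe sets. A change was called if the Benjamini-Hochberg adjusted p over all 9275 probe sets, from limma, was under 0.05. Htt25Q array 1 stood apart in RNA quality: for actin, the deposited 3′ signal exceeded the 5′ signal by 2.48, while this difference was −0.33 to 0.31 on every other array. The median SD of a probe set between replicates was 0.248 in Htt25Q and 0.0864 to 0.177 in the other groups. The 18S rRNA control probes read 10.4 on ume1 array 1 and 5.90 to 8.08 on the rest of its set. The deleted genes BNA4, MBF1 and UME1 had mean signals of 2.12, 2.09 and 2.34 in their own strains, and MET17, which BY4741 lacks, had 2.04 in every group. Of the mating type genes, STE2, MFA1 and MFA2 had group means of 9.09 to 12.81. STE3, MF(ALPHA)1 and MF(ALPHA)2 had 2.04 to 5.64, and MF(ALPHA)1 ranged from 4.23 to 6.93 in Htt25Q. URA3 ranged from 9.14 to 11.64 in Htt25Q.

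ROQ1 was the member that changed most. ROQ1 (YJL144W, chromosome X, 146359 to 146673 in the R64 assembly) had signals of 4.89, 4.55 and 4.86 in the arrays of Htt25Q and of 8.83, 8.76 and 8.40 in those of Htt103Q. In the ume1 deletion it had 9.76, 9.64 and 9.47. The groups of this set did not overlap, and the order from low to high was Htt25Q, Htt103Q, ume1 deletion, with a largest range inside a group of 0.43. ROQ1 rose 14.9-fold from Htt25Q to Htt103Q, a log2 fold change of 3.90 ± 0.135 (SE, n = 3 each, adjusted p = 1.06e-07), which ranked 3 of 9275 by size. Each SE given here comes from the limma fit to all 15 arrays, not from the arrays compared alone. ROQ1 rose by a further 0.96 ± 0.135 in the ume1 deletion over Htt103Q (1.95-fold, adjusted p = 0.00360), and stood 29.0-fold above Htt25Q there (4.86, adjusted p = 3.69e-09). These comparisons share arrays, so none is independent of the others, and the last change is the sum of the first and second. The rise in Htt103Q was called under every alternative tried, with adjusted p up to 0.0107 and values of 3.79 to 4.19. The step from Htt103Q to the ume1 deletion was not called when the set was normalized and fitted alone (1.01, adjusted p = 0.0584) or with only the 6 arrays compared (0.96, adjusted p = 0.0767).

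In the second set ROQ1 had 7.65, 7.32 and 7.54 in the bna4 deletion and 7.34, 7.52 and 7.40 in the mbf1 deletion. The groups overlapped, and the difference was −0.08 with a 95% confidence interval of −0.38 to 0.21 (adjusted p = 0.897). All 6 of these values lay above the Htt25Q and below the Htt103Q arrays, a comparison across the processing sets that was not tested.

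**Figure D1:**
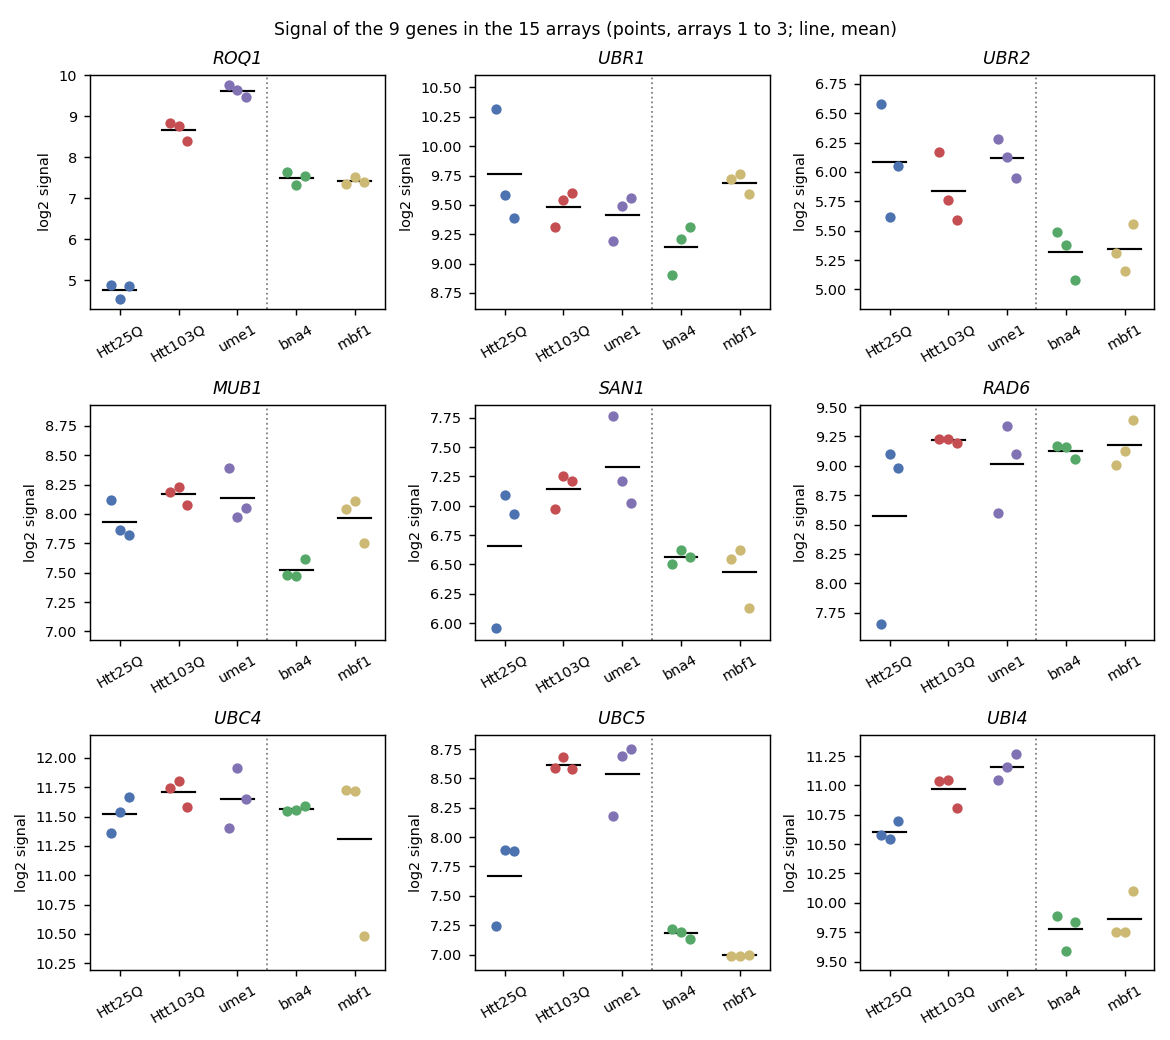
Log2 signal (vertical axes, each gene with its own range) of the 9 genes in the 5 groups; points are arrays 1 to 3 from left to right, lines are means, and the dotted line parts the processing sets. ROQ1 separates Htt25Q (4.55 to 4.89), Htt103Q (8.40 to 8.83) and the ume1 deletion (9.47 to 9.76), while RAD6 and SAN1 have their lowest value and UBR1 its highest in Htt25Q array 1.

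The ligases that Roq1 acts on or beside were not called in the first set. UBR1 (YGR184C, chromosome VII, 859901 to 865753) had 10.32, 9.58 and 9.39 in Htt25Q, 9.31, 9.54 and 9.60 in Htt103Q and 9.19, 9.49 and 9.56 in the ume1 deletion. The groups overlapped, and the highest value was that of Htt25Q array 1. The log2 fold change of UBR1 in Htt103Q was −0.28 (95% interval −0.74 to 0.19, adjusted p = 0.529), and 0.00 without that array. Against Htt103Q the ume1 deletion had −0.07 (−0.54 to 0.39, adjusted p = 0.990).

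UBR2 (YLR024C, chromosome XII, 187663 to 193281), the ligase that marks Rpn4, had 6.58, 5.62 and 6.05 in Htt25Q, 6.17, 5.76 and 5.59 in Htt103Q and 6.28, 6.13 and 5.95 in the ume1 deletion. Its groups overlapped, and its difference in Htt103Q was −0.24 (−0.75 to 0.27, adjusted p = 0.632), and 0.01 without Htt25Q array 1. Its partner MUB1 (YMR100W, chromosome XIII, 466300 to 468162) had 8.12, 7.86 and 7.82 in Htt25Q, 8.19, 8.23 and 8.08 in Htt103Q and 8.39, 7.97 and 8.05 in the ume1 deletion. Its Htt103Q difference was 0.24 (−0.04 to 0.52, adjusted p = 0.374). RPN4, whose protein Ubr2 and Mub1 degrade, rose by 1.48 ± 0.174 in Htt103Q (adjusted p = 9.25e-04) and by 1.60 in the ume1 deletion against Htt25Q (2.46e-04). The RPN4 call against Htt25Q withstood every omission of a single array, but was lost in both comparisons with only the 2 groups compared.

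SAN1 (YDR143C, chromosome IV, 742042 to 743874), the nuclear ligase, had 5.96, 7.09 and 6.93 in Htt25Q, 6.97, 7.25 and 7.21 in Htt103Q and 7.76, 7.21 and 7.02 in the ume1 deletion. Htt25Q array 1 was the lowest of the 9 and ume1 array 1 the highest, and the groups overlapped. The difference in Htt103Q was 0.48 (−0.13 to 1.09, adjusted p = 0.416), and 0.13 without Htt25Q array 1. In the ume1 deletion against Htt25Q it was 0.67 (0.06 to 1.28, unadjusted p = 0.0333, adjusted p = 0.172).

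Of the E2 enzymes, UBC5 rose in Htt103Q and in the ume1 deletion against Htt25Q. UBC5 (YDR059C, chromosome IV, 569234 to 569770) had 7.24, 7.89 and 7.88 in Htt25Q, 8.59, 8.68 and 8.58 in Htt103Q and 8.18, 8.69 and 8.75 in the ume1 deletion. Every Htt103Q and ume1 value lay above every Htt25Q value. UBC5 was 1.93-fold higher in Htt103Q than in Htt25Q (log2 fold change 0.95 ± 0.174, adjusted p = 0.0111) and also rose in the ume1 deletion against Htt25Q (0.87 ± 0.174, adjusted p = 0.0118). Between the ume1 deletion and Htt103Q the difference was −0.08 (−0.46 to 0.31, adjusted p = 0.970). In normalized values, all 6 UBC5 signals of the bna4 and mbf1 deletions lay below every Htt25Q value (6.99 to 7.22 against 7.24 to 7.89). Both deletions also carry the expanded repeat. This placement did not hold in deposited values, where the 6 were 7.20 to 7.40 and Htt25Q array 1 was 7.16. It crosses the processing sets and was not tested. The call in Htt103Q stayed without Htt25Q array 1 (0.73, adjusted p = 0.0115). It was lost in 5 of 16 alternatives, among them the omission of Htt103Q array 2 (0.91, adjusted p = 0.0551). The set alone lost it with deposited (adjusted p = 0.130) and normalized values (1.00, adjusted p = 0.120), as did the 2 groups alone (0.222). It was also lost with the first set normalized and fitted without Htt25Q array 1 (adjusted p = 0.116). The call in the ume1 deletion was lost in 3 of 15 alternatives, with the set alone (adjusted p = 0.115 with deposited and 0.109 with normalized values) and with the 2 groups alone (0.284).

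Its relative UBC4 (YBR082C, chromosome II, 406628 to 407169) had 11.36, 11.54 and 11.67 in Htt25Q, 11.74, 11.80 and 11.58 in Htt103Q and 11.40, 11.91 and 11.65 in the ume1 deletion. These groups overlapped, and the Htt103Q difference was 0.18 (−0.43 to 0.79, adjusted p = 0.810). The change of UBC5 relative to UBC4 inside each array was computed after the values were seen. UBC5 minus UBC4 was −4.12 to −3.65 in Htt25Q and −3.15 to −3.01 in Htt103Q, a mean difference of 0.77. No test is given for it, since UBC5 was already seen to separate these groups.

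RAD6 (YGL058W, chromosome VII, 393986 to 394504), the E2 of Ubr1 and Ubr2, had 7.65, 9.10 and 8.98 in Htt25Q, 9.23, 9.23 and 9.19 in Htt103Q and 8.60, 9.34 and 9.10 in the ume1 deletion. The Htt103Q values lay above all Htt25Q values, but 2 of the Htt25Q arrays were close below them and array 1 was far lower. The difference was 0.64 (−0.07 to 1.35, adjusted p = 0.339), and 0.18 (adjusted p = 0.820) without Htt25Q array 1, the array with the high actin 3′ to 5′ difference. The part of RNA quality in the array 1 values of RAD6, SAN1 and UBR1 was not tested.

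UBI4, the stress polyubiquitin gene, stood higher in small steps. UBI4 (YLL039C, chromosome XII, 64062 to 65207) had 10.58, 10.54 and 10.70 in Htt25Q, 11.04, 11.05 and 10.81 in Htt103Q and 11.05, 11.16 and 11.27 in the ume1 deletion. The Htt25Q arrays lay below all others, and Htt103Q and the ume1 deletion touched at 11.05. UBI4 rose in the ume1 deletion against Htt25Q, by 0.55 ± 0.113 (1.47-fold, adjusted p = 0.0136). The difference of 0.36 ± 0.113 between Htt103Q and Htt25Q (1.28-fold) did not pass over all probe sets (unadjusted p = 0.00849, adjusted p = 0.113), nor did 0.19 between the ume1 deletion and Htt103Q (adjusted p = 0.531). The ume1 call was lost with deposited values of the set alone (0.55, adjusted p = 0.0613) and with only the 2 groups (adjusted p = 0.0706). The 6 UBI4 values of the bna4 and mbf1 deletions, at 9.59 to 10.10, lay below all Htt25Q values, which likewise was not tested across the processing sets.

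Ubiquitin is also encoded as fusions with ribosomal proteins, by RPS31, RPL40A and RPL40B, whose ubiquitin part shares sequence with UBI4. Whether the UBI4 probes also bind these transcripts was not tested. RPS31 had a log2 fold change of −0.05 in Htt103Q (adjusted p = 0.923) and of 0.11 in the ume1 deletion against Htt25Q (0.640). The 3 probe sets shared by RPL40A and RPL40B had 0.00 to 0.07 in Htt103Q and −0.29 to 0.13 in the ume1 deletion against Htt25Q, none of them called. In the mbf1 against the bna4 deletion the shared probe sets had −0.44, −0.16 and −0.09. The probe set at −0.44 was called lower in the mbf1 deletion (adjusted p = 0.00761). The others were not called (0.940 and 0.673), nor was RPS31 at −0.33 (0.136). UBC4 and UBC5 are close paralogs, and cross-binding of their probes was likewise not tested.

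**Figure D2:**
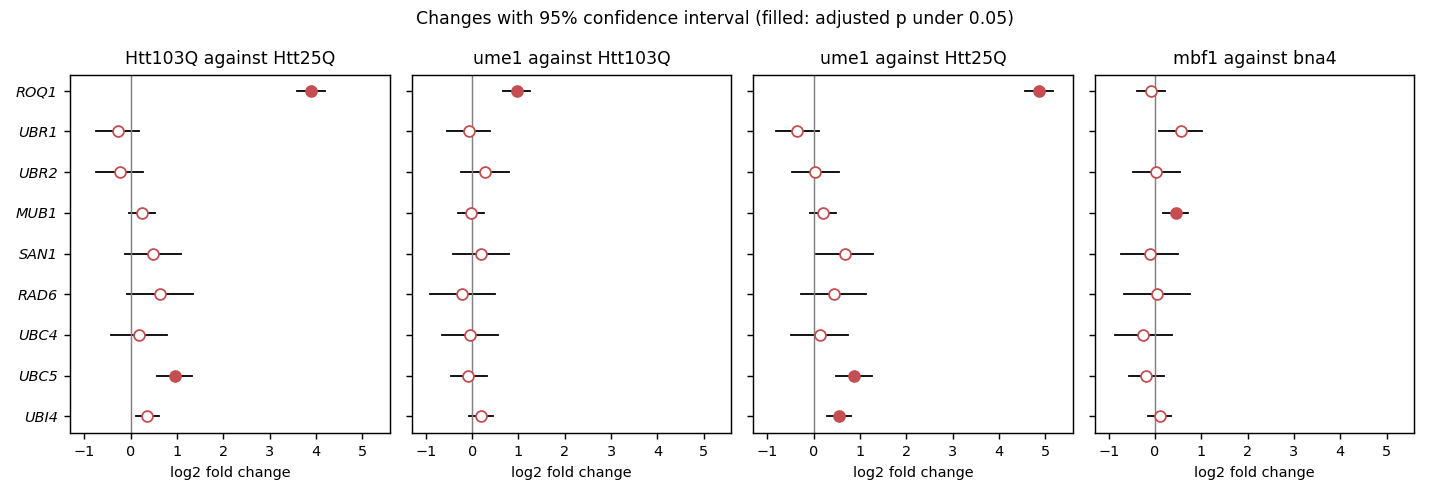
Log2 fold change (horizontal axes) of the 9 genes in 4 comparisons, with 95% confidence intervals from limma as lines and called changes as filled points. ROQ1 is the only member past 1 on this scale, at 3.90 in Htt103Q and 4.86 in the ume1 deletion against Htt25Q, and UBC5 is called at 0.95 and 0.87.

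In Htt103Q against Htt25Q, 2 of the 9 members were called, ROQ1 and UBC5, both higher, where 4.44% of all probe sets were called (2.06% higher and 2.38% lower), and 3 members had an unadjusted p under 0.05. The arrays of the groups did not overlap for 4 members (ROQ1, RAD6, UBC5 and UBI4, all higher in Htt103Q), against 18.9% of all probe sets. The members' median log2 fold change was 0.36, and that of all probe sets 0.00. In the ume1 deletion against Htt103Q only ROQ1 was called, and it was higher, with 2.60% of all probe sets called (1.60% higher and 1.00% lower), and it was also the only member without overlap (20.4% of all). The median of the members was −0.03 there. In the ume1 deletion against Htt25Q, ROQ1, UBC5 and UBI4 were called higher and did not overlap, with 7.86% of all called (4.18% higher and 3.68% lower) and 21.4% without overlap, and the median of the members was 0.43. The 9 genes were chosen by name, with earlier results of these data known, so these counts and medians are descriptions only.

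Inside the second set, 1 of the 9 members was called between the mbf1 and bna4 deletions, where 10.5% of all probe sets were (5.74% higher and 4.81% lower in the mbf1 deletion). MUB1 had 7.48, 7.47 and 7.62 in the bna4 deletion and 8.04, 8.11 and 7.75 in the mbf1 deletion, and was 1.36-fold higher in the latter (0.45 ± 0.126, adjusted p = 0.0464). This call was lost in 10 of 15 alternatives, with adjusted p up to 0.156, among them every omission of 1 array except mbf1 array 3. UBR1 had 8.90, 9.21 and 9.31 in the bna4 deletion and 9.72, 9.76 and 9.59 in the mbf1 deletion. The UBR1 groups did not overlap, and its difference of 0.55 ± 0.210 had an unadjusted p of 0.0238 and an adjusted p of 0.142. UBR1 was called in 2 of 15 alternatives, without both arrays in doubt, Htt25Q 1 and ume1 1 (adjusted p = 0.0111), and with array weights (0.00131). UBC5 had 7.22, 7.19 and 7.13 in the bna4 deletion and 6.99, 6.99 and 7.0 in the mbf1 deletion, without overlap, a difference of −0.19 (adjusted p = 0.673). UBC5 was called in 5 of 15 alternatives, with adjusted p down to 0.00450. Among them was the set normalized and fitted alone (−0.17, adjusted p = 0.0152).

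The lowest UBC4 value of the series was mbf1 array 3, at 10.48 against 11.72 and 11.73 in the other mbf1 arrays and 11.55 to 11.59 in the bna4 deletion, and the difference between the groups was −0.25 (−0.86 to 0.36, adjusted p = 0.752). UBI4 ranged from 9.59 to 9.89 and, in the mbf1 deletion, from 9.75 to 10.10, with a difference of 0.10 (−0.15 to 0.34, adjusted p = 0.783). RAD6 stood at 9.06 to 9.17 and 9.01 to 9.39, SAN1 at 6.50 to 6.62 and 6.13 to 6.62, and UBR2 at 5.08 to 5.49 and 5.16 to 5.56. These 3 overlapped and had differences of −0.12 to 0.04. In all, the arrays of the 2 strains did not overlap for 3 of 9 members, against 37.3% of all probe sets.

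Gene length moved with this comparison. Across the 6504 probe sets with 1 gene symbol, longer genes had the higher mbf1 to bna4 fold changes, with a Spearman correlation across genes of 0.28. The 10% of probe sets with the longest genes had a median of 0.32 and the 10% with the shortest a median of 0.00. UBR1, at 5853 bases, is longer than or as long as 96.6% of them, and UBR2, at 5619 bases and with a difference of 0.03, is as long as or longer than 95.8%. The correlation was −0.01 to 0.02 in the comparisons of the first set, and −0.07 and −0.05 in those against Htt25Q without its array 1. The part of length in the UBR1 and MUB1 values was not tested.

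Genes whose signal followed ROQ1 most closely over the 9 arrays of the first set were ranked by Pearson correlation among 5569 genes. The 6 highest were BAG7 (0.990), FBP26 (0.986), IDP2 (0.983), CPR6 (0.982), FES1 (0.981) and SRX1 (0.980). BAG7, a regulator of the GTPase Rho1, had group means of 3.35 in Htt25Q, 6.93 in Htt103Q and 7.82 in the ume1 deletion. SRX1, a sulfiredoxin, went from 6.22 to 9.16 and 9.75. FES1, a nucleotide exchange factor of Hsp70, had 8.44, 9.57 and 9.79, and CPR6, a cyclophilin that works with Hsp90, 9.89, 10.83 and 11.18. IDP2, a cytosolic isocitrate dehydrogenase, had means that spanned 1.85, and FBP26, a phosphatase of sugar metabolism, 1.19. The 9 arrays fall into 3 groups and share their normalization, so these correlations describe mainly the 3 group means and carry no p.

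The same ranking for UBI4 began with CPR6 (0.973), followed by CAP1 (0.963), AIP1 (0.950), PUN1 (0.944), APL1 (0.937) and ACS1 (0.936). CAP1, which caps actin filaments, had means of 9.23, 9.58 and 9.66 in Htt25Q, Htt103Q and the ume1 deletion. AIP1, a cofactor of actin filament severing, had 10.32, 10.68 and 10.85. ACS1, an acetyl-CoA synthetase, had the widest span of the 6, at 1.83. CPR6 was the 1 gene named for both ROQ1 and UBI4.

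**Figure D3:**
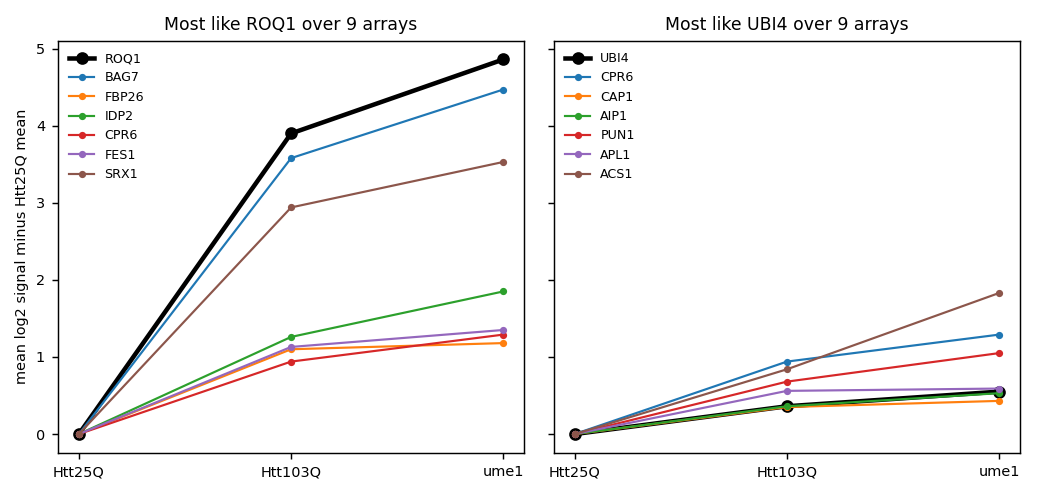
Mean log2 signal minus the Htt25Q mean (vertical axis) in Htt25Q, Htt103Q and the ume1 deletion for ROQ1 (left, black) and UBI4 (right, black) and the 6 genes with the highest correlation to each (coloured). BAG7 spans 4.47 beside the 4.86 of ROQ1, and ACS1 spans 1.83 beside the 0.55 of UBI4.

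The rest of the ubiquitin system was described with 6 lists of 63 genes, of which 61 had a probe set of their own. RPL40A and RPL40B had only shared ones, and TOM1 had 11. In Htt103Q against Htt25Q, 3 of the 61 genes rose, 2 fell and 56 did not pass. The median log2 fold change over the probe sets of these genes, with TOM1 entering 11 times, was 0.09 against 0.00 for all probe sets. Of all probe sets, 4.44% were called there, 2.06% higher and 2.38% lower, and nothing is read from the count of 5. Leaving out 1 array gave 1 to 7 called genes, with 1 without Htt103Q array 3, 2 without Htt103Q array 2, 3 without Htt103Q array 1, Htt25Q array 2 or Htt25Q array 3, and 7 without Htt25Q array 1. With the set normalized and fitted alone 1 was called, RPN4, and with the 2 groups alone 0.

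In the N-degron and Roq1 branch, 1 of 7 genes fell. ATE1, the transferase that adds arginine to proteins to make them substrates of Ubr1, had 6.85 to 7.46 in Htt25Q and 6.30 to 6.61 in Htt103Q, a fall by 0.69 ± 0.147 on the log2 scale (adjusted p = 0.0248). The ATE1 call was lost in 2 of 6 omissions of 1 array, and with the set alone (adjusted p = 0.148). NMA111, the protease that cuts Roq1, had −0.23 (adjusted p = 0.458) in Htt103Q and 0.29 (0.445) in the ume1 deletion against Htt103Q. CUP9, a repressor that Ubr1 degrades, had 0.43 (0.501) in Htt103Q, and the peptide transporter gene PTR2, which Cup9 represses, had 0.26 (0.678).

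Of the other lists in that comparison, 1 of 10 E2 genes and their partners rose, MMS2 (0.46, adjusted p = 0.0287), which acts with Ubc13. The MMS2 call was lost in 2 of 6 omissions and with the set alone (adjusted p = 0.162). Of 12 deubiquitinating enzymes and regulators, RFU1, an inhibitor of the enzyme Doa4, fell by 1.18 (adjusted p = 0.0316), a call lost in 4 of 6 omissions. In the list of Cdc48, shuttle factors and Rpn4, 2 of 13 rose, RPN4 and DDI1 (0.60, adjusted p = 0.0316), which brings ubiquitinated proteins to the proteasome. The DDI1 call was lost in 5 of 6 omissions. None of 17 other ligases was called by limma, with 1 at an unadjusted p under 0.05. UBA1, the E1 enzyme, had 0.09 (adjusted p = 0.846).

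In the ume1 deletion against Htt103Q, 1 of the 61 genes was called, PEX4, a peroxisomal E2 (0.58, adjusted p = 0.0477), a call that each of the 6 omissions ended, while 7 had an unadjusted p under 0.05. ATE1 had 0.49 there (adjusted p = 0.145). That comparison called 2.60% of all probe sets. In the ume1 deletion against Htt25Q, 5 rose and 56 did not pass. Of all probe sets, 7.86% were called there, 4.18% higher and 3.68% lower, and nothing is read from the count of 5. The count was 2 without ume1 array 2 and 8 without Htt25Q array 1, the lowest and highest when 1 array was left out. RPN4 was followed by DDI1 (0.96, adjusted p = 0.00142), the Hsp40 chaperone gene YDJ1 (0.79, 0.0217), UBC8 (0.76, 0.0213), an E2 for gluconeogenic enzymes, and UBC1 (0.52, 0.0392), an E2 of San1. Of these, DDI1 and RPN4 kept their call in all 6 omissions and with the set normalized and fitted alone. With only the 2 groups compared, 0 of the list genes were called.

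Between the mbf1 and bna4 deletions, 12 of the 61 genes were higher in the mbf1 deletion, 5 were lower and 44 did not pass, where 10.5% of all probe sets were called, 5.74% higher and 4.81% lower. Leaving out 1 array gave 6 called genes without mbf1 array 1, 8 without bna4 array 2, 10 without bna4 array 1 or 3, 11 without mbf1 array 2 and 13 without mbf1 array 3. The ligases RSP5 (1.08, adjusted p = 0.0217), RKR1 (0.92, 0.00240), which acts on stalled ribosomes, and HUL5 (0.86, 0.00300), which works at the proteasome and on misfolded cytosolic proteins, were among the rises. The deubiquitinating enzymes UBP15 (0.90, 0.00420) and UBP12 (0.78, 0.0489) also rose, and LGE1, a partner of the Rad6 ligase Bre1, fell by 0.76 (9.38e-04). The calls of RSP5 and UBP12 were lost in 5 and 6 of the 6 omissions, and those of RKR1, HUL5, UBP15 and LGE1 in none. With the set normalized and fitted alone, RSP5 (adjusted p = 0.00934), UBP12 (0.00620) and the others named here were all called. That fit lost the calls of UBA1 (0.0561), CDC34 (0.0584) and UBP14 (0.0886). It added MAP2 (0.00459), DDI1 (0.00961), ASI3 (0.0146), DSK2 (0.0233) and 1 TOM1 probe set (0.0465), so the 12 and 5 depend on the arrays fitted. The median over the probe sets of the lists was 0.01. Longer genes had the higher fold changes in this comparison, and the part of length in these list calls was not tested.

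**Figure D4:**
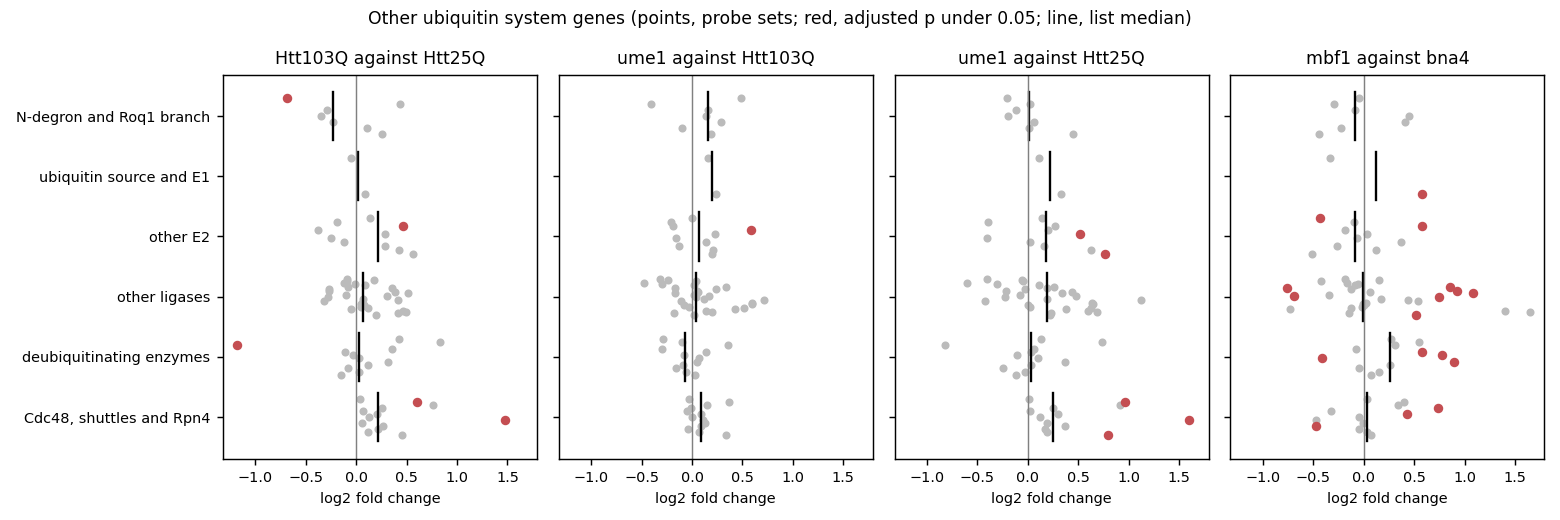
Log2 fold change (horizontal axes) of the probe sets of 61 other ubiquitin system genes in 6 lists and 4 comparisons; red points passed an adjusted p of 0.05 and black lines are list medians. RPN4 at 1.48 and RFU1 at −1.18 are the extremes of Htt103Q against Htt25Q, and 17 genes are called between the mbf1 and bna4 deletions.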

How the data were processed

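The authors deposited 1 log2 signal per probe set and array, for 9335 probe sets on 15 arrays, per the file headers and the values. The summary and normalization method is not stated in the labels or headers. The 60 control probe sets were left out, and the other 9275 were quantile normalized across arrays, since the 2 processing sets differed in their medians (6.35 to 6.47 and 6.78 to 6.84) and lowest values (2.06 and 2.02). limma (version 3.58.1, R 4.3.3) fitted 5 group means to all arrays, with eBayes moderation, two-sided tests and Benjamini-Hochberg adjustment over 9275 probe sets, called under 0.05. The procedure was tested on simulated data. Gene symbols came from the platform annotation and coordinates from the R64 gene table. Members and lists were chosen with earlier results of these data known. Named were all members, the 6 genes most like ROQ1 and UBI4, and up to 6 called genes of the lists per comparison by size of change, while NMA111, CUP9, PTR2 and UBA1 were named for their roles, and repeats of a named gene, after values were seen. No 2 arrays were identical. Precision is limited by the 3 arrays a group and by array quality, which differed between arrays. Promoter and protein sequences were not analysed here. The alternatives were deposited values, fits of the set or of the 2 groups alone, a replicate block, omission of single arrays or of both arrays in doubt, a filter on dim probe sets, a trended robust variance and array weights. One further fit, of the first set normalized without Htt25Q array 1, was chosen after seeing the data.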

Additional observations from a re-analysis of the deposited data

How the results depend on the processing

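ROQ1 in Htt103Q and in the ume1 deletion against Htt25Q kept direction and call in all alternatives (16 and 15), and no called member changed direction in any of them. Counts of called probe sets depended on the arrays that set the spread. With the processing set alone, 134 (deposited) or 127 (quantile normalized) of all probe sets were called in Htt103Q against Htt25Q, 46 or 56 in the ume1 deletion against Htt103Q, and 252 or 243 against Htt25Q. With the 2 groups alone the counts were 32, 121 and 75. Of the members, 1 was called in Htt103Q under these 3 settings, in the ume1 deletion against Htt103Q 0 under the last 2 (ROQ1 at adjusted p = 0.0584 and 0.0767 by limma), and against Htt25Q 1 with deposited values of the set and 1 with the 2 groups. Without both arrays in doubt (Htt25Q 1 and ume1 1), 625, 464 and 1745 probe sets were called in Htt103Q, the ume1 deletion against Htt103Q, and mbf1 against bna4, where 3 members passed. Array weights, whose estimation stopped before its tolerance was reached, gave 810, 1512, 2299 and 2982 over the 4 comparisons, and 3 members in the last. The first set normalized without Htt25Q array 1 gave 220 probe sets and 1 member. For mbf1 against bna4 the dim filter and the trended robust variance each left 0 members (MUB1 at adjusted p = 0.0651 and 0.0539). Leaving out 1 array gave 191 to 559, 115 to 241, 464 to 871 and 634 to 920 probe sets over the 4 comparisons, with the lowest counts without Htt103Q array 2 (and 217 and 130 without array 3) in the first and second, ume1 array 2 in the third and bna4 array 2 in the last, and 1 to 2, 1, 3 and 0 to 1 members. Replicate numbers were not used as pairs in the main fit. Correlations of residuals were 0.340, −0.169 and 0.434 in the ume1 deletion against Htt103Q, which does not settle whether those arrays were paired. In the other comparisons they were −0.107 to 0.152. The replicate block gave 425, 230, 714 and 970 probe sets and the same number of members in each comparison.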
